A study of Mus musculus with 27 samples.

Results

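The hypoxia response genes described here are 10 mouse genes, Hif1a, Egln1, Egln3, Ndufa4l2, Pdk1, Slc2a1, Bnip3, P4ha1, Vegfa and Ankrd37, of 38123 genes in the deposited tables. They were taken as a named list, and Ndufa4l2 was selected on its measured FPKM, as one of the largest falls after Dicer loss in both the nuclear and the cytoplasmic fraction. The fraction values at day 12 against day 0 therefore chose the list and are given below without a test. All 10 passed the filter on low values in both sets of libraries.

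The study followed the loss of Dicer, the ribonuclease that makes microRNAs, in mouse embryonic stem cells. The cells were the XY conditional Dicer lines named DTCM23/49, in which 800 nM (Z)-4-hydroxytamoxifen (4-OHT) removes the RNase III domain of Dicer. They were kept on gelatin in medium with serum and leukemia inhibitory factor. Polyadenylated RNA was sequenced from 27 libraries in 9 groups of 3. There were 5 whole cell groups (day 0, day 4, day 8, day 10 and a group labelled day 12) and 4 fraction groups, nucleus and cytoplasm at days 0 and 12. Day 0 cells carried the same conditional allele before its deletion. By the labels and protocol, the later groups had been given 4-OHT and grown from picked colonies without Dicer, so they also differ from day 0 in selection and passage number. Dicer1 in the whole cell group labelled day 12 goes against that description, as given below. The protocol names cells given 0.1% ethanol as controls, and only the day 0 libraries stand for untreated cells among those analysed here, so time in culture and Dicer loss cannot be told apart. The labels number the replicates but tie them to no separate cell line, so the p-values reflect library-to-library spread only.

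The hypoxia-inducible factors (HIF) are transcription factors made of an oxygen-regulated alpha subunit, such as HIF1A, and the stable partner ARNT. When oxygen is sufficient, prolyl hydroxylases such as EGLN1 and EGLN3 mark the alpha subunit, the VHL ligase binds it and it is degraded. When oxygen is short the subunit accumulates and raises the transcription of genes for glucose uptake, glycolysis, lower mitochondrial use of fuel, mitophagy, collagen processing and vessel growth. Control of HIF1A is mostly at the protein level, so its mRNA need not follow the activity of the pathway. Several targets, EGLN3 among them, encode parts of the feedback on the pathway itself.

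The library checks touch several results below. Dicer1 was at 16.3 ± 1.47 FPKM (fragments scaled to transcript length and to the library's mapped total, SD, n = 3) in whole cells at day 0 and at 1.41 ± 0.462, 1.71 ± 0.173 and 1.83 ± 0.124 at days 4, 8 and 10. In the whole cell libraries labelled day 12 it was at 14.6 ± 1.77 FPKM, and these 3 libraries overlapped day 0, which goes against their label. The fraction libraries at day 12 had 4.20 ± 1.11 FPKM of Dicer1 in the nucleus and 3.06 ± 0.366 in the cytoplasm. A further 3 libraries stood apart from the rest of their groups, namely whole cell day 4 replicate 3, nucleus day 0 replicate 3 and nucleus day 12 replicate 1. The stem cell markers Pou5f1, Nanog, Sox2, Zfp42, Esrrb, Klf4, Tfcp2l1 and Dppa5a were each above 1 FPKM in every group mean. With the first day 4 whole cell library set to 1, relative sequencing depth was 3.05 to 3.61 in the whole cell day 0 libraries and 0.722 to 1.80 in all others. Gapdh, a glycolytic enzyme, was at 798 ± 80.9 FPKM in the whole cell day 0 libraries, at 72.1 ± 10.7 at day 4, at 66.7 ± 8.65 at day 10 and at 79.3 ± 1.86 in the libraries labelled day 12, whose Dicer1 was near its day 0 level. Whether the whole cell day 0 files were quantified in another way was not tested, and this touches every whole cell change against day 0 below. The steps between later days do not use those files.

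HIF binds DNA at a short core, and promoters of members that moved together are shown to let that core be seen. In the RefSeq promoter table for GRCm38.p6, from 250 bases before to 50 bases after the transcription start, 9 of the 10 members had an entry; Ndufa4l2 did not. ACGTG, or GCGTG, was searched on both strands, and overlapping matches were counted. ACGTG was present in 7 of the 9 promoters and in 19.6% of all 32851 promoters in the table, and GCGTG in 6 of the 9 and in 32.4% of all. Either form stood in 8 of the 9 against 43.8% of all, with Vegfa the member without one. The first 4 below belong to members that were lower at day 10 (Bnip3, Ankrd37, Egln3 and P4ha1), and the last to Slc2a1, which was not called at day 10. They lie at chr7:138909457-138909756 (minus strand), chr8:45999801-46000100 (minus strand), chr12:54203825-54204124 (minus strand), chr10:59323046-59323345 (plus strand) and chr4:119108495-119108794 (plus strand). Capitals mark each ACGTG or GCGTG on either strand.
Bnip3: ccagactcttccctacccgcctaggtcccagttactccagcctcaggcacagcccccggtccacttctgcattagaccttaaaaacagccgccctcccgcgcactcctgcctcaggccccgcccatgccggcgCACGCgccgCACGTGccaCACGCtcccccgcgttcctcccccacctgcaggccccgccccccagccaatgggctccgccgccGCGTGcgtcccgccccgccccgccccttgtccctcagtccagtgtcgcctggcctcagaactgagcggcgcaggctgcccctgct
Ankrd37: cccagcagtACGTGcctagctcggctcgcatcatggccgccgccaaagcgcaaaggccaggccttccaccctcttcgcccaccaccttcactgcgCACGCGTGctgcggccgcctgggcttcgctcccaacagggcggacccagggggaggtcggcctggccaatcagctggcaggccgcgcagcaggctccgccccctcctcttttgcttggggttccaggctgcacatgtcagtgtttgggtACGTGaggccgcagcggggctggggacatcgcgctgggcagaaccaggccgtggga
Egln3: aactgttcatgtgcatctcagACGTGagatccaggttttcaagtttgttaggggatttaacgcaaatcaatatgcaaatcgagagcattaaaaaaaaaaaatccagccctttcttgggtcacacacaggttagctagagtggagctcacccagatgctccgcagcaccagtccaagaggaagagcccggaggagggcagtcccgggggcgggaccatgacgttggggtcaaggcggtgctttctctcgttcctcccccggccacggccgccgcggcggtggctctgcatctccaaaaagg
P4ha1: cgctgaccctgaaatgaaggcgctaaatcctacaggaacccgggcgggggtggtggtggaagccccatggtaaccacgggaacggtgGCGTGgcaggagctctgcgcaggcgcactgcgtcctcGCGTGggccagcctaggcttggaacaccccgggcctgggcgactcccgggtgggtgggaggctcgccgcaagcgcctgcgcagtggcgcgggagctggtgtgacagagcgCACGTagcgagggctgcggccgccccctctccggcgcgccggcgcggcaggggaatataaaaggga
Slc2a1: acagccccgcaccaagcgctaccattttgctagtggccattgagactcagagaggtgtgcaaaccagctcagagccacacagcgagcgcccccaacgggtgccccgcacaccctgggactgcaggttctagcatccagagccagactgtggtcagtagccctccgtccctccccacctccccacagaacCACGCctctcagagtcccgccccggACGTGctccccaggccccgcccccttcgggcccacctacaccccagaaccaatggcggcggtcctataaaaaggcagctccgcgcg
Bnip3 held 2 ACGTG and 3 GCGTG matches, the 2 ACGTG matches being the 2 strands of 1 palindrome. Ankrd37 held 2 of each, Egln3 held 1 ACGTG, P4ha1 held 1 ACGTG and 2 GCGTG, and Slc2a1 held 1 of each. Hif1a held 3 ACGTG, Egln1 held 1 of each and Pdk1 held 2 GCGTG. The core was thus found both in promoters of members that fell and in promoters of members that did not, and a match in these letters describes the sequence only.

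By day 10, 6 of the 10 members had fallen in whole cells and none had risen (8 lower and 0 higher at an unadjusted limma p under 0.05). Ndufa4l2 fell to 5.83% of its day 0 mean, Ankrd37 to 23.6%, Bnip3 to 24.2%, Egln3 to 46.0%, Vegfa to 67.8% and P4ha1 to 71.1%. Hif1a, Egln1, Pdk1 and Slc2a1 were not called at day 10. Over all 15991 genes tested, 16.0% were called lower and 27.7% higher at day 10 (limma, Benjamini-Hochberg adjusted p under 0.05 over all genes). The median log2 change was -0.49 over the 10 members and 0.09 over all genes. The count of 6 and this median include Ndufa4l2, which was put on the list for its falls after Dicer loss in the fractions. Each of the 6 calls held under every alternative scaling, filter and omission of 1 library that was run. Fewer cells expressing a gene and less RNA of it per cell cannot be told apart in these bulk libraries.

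**Figure D1:**
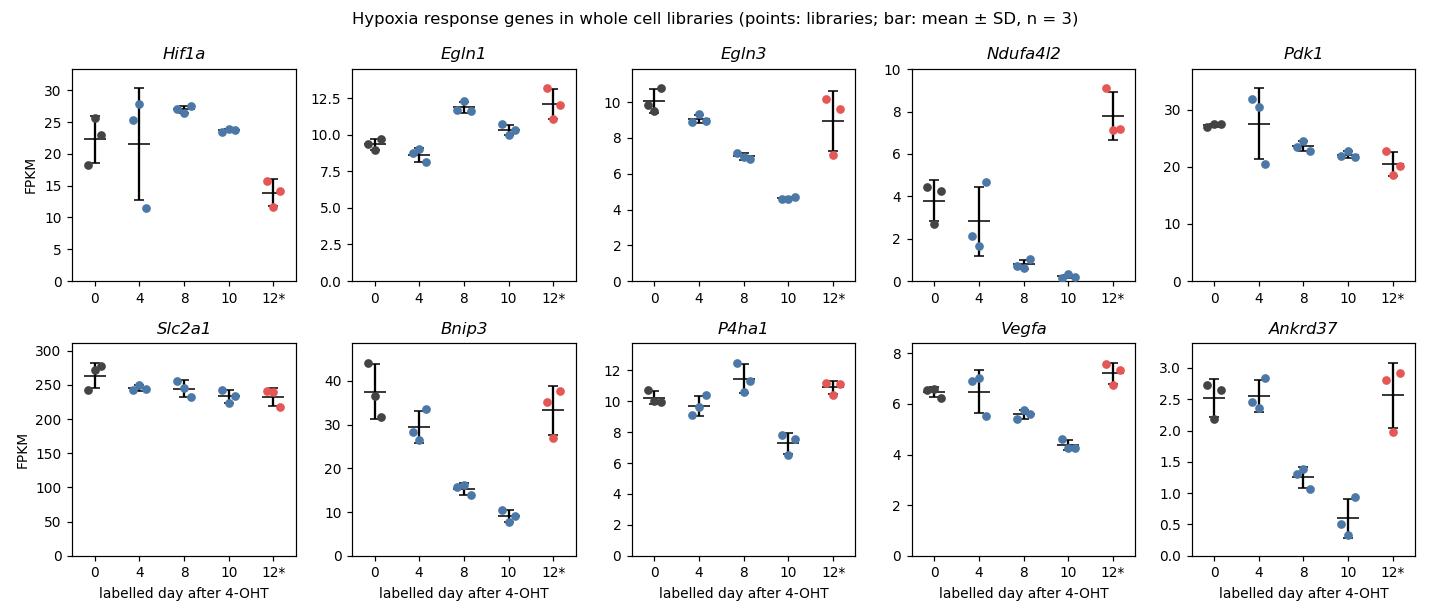
FPKM of the 10 genes (vertical axes, each from 0) in the whole cell libraries by labelled day (horizontal axes); points are libraries, and bars the mean and SD of 3. Ndufa4l2, Bnip3, Ankrd37 and Egln3 step down from day 4 to day 10, and the libraries labelled day 12 (asterisk, Dicer1 near its day 0 level) lie near or above day 0 for these genes.

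The gene of the alpha subunit showed no called change against day 0. Hif1a, the oxygen-regulated alpha subunit, was at 18.2, 25.6 and 23.0 FPKM at day 0, at 25.3, 27.9 and 11.5 at day 4, at 27.0, 26.4 and 27.6 at day 8 and at 23.5, 23.9 and 23.8 at day 10. The libraries labelled day 12 had 15.8, 11.6 and 14.2. Day 10 lay within the range of day 0, day 8 lay above it and the libraries labelled day 12 lay below it. The Hif1a log2 change was 0.29 ± 0.25 (SE, limma adjusted p = 0.434) at day 8 and 0.10 ± 0.25 (adjusted p = 0.774) at day 10. In the libraries labelled day 12 it was -0.66 ± 0.25 (adjusted p = 0.102). The change in the libraries labelled day 12 passed the threshold under median-of-ratios scaling (-0.72, adjusted p = 0.0466), quantile normalization (-0.73, 0.0460) and in the fit of the 2 groups alone (-0.66, 0.0167). It also passed without whole cell day 4 replicate 3, the library with 11.5 FPKM (-0.66, 0.00134). Hif1a shares 330 exon bases with the antisense gene Gm15283, and whether the authors counted by strand is not given in the sources used here.

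The oxygen sensors moved in different directions. Egln1, the main prolyl hydroxylase acting on HIF1A, was at 9.35, 8.96 and 9.74 FPKM at day 0 and at 11.7, 12.3 and 11.6 at day 8, with no overlap. It rose by 0.33 ± 0.08 on the log2 scale at day 8 (limma adjusted p = 0.00614). At day 10 it was at 10.7, 10.0 and 10.3 FPKM, above every day 0 library, with a log2 change of 0.14 ± 0.08 that did not pass (adjusted p = 0.184). Egln3, a prolyl hydroxylase whose own gene is a HIF target, was at 9.85, 9.53 and 10.8 FPKM at day 0, at 8.89, 9.32 and 8.95 at day 4, at 7.16, 6.94 and 6.80 at day 8 and at 4.59, 4.61 and 4.70 at day 10. Each day's libraries lay wholly below those of the day before. The Egln3 log2 change was -0.50 ± 0.11 at day 8 (limma adjusted p = 0.00419) and -1.04 ± 0.11 at day 10 (adjusted p = 7.88e-06).

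The metabolic targets split into 1 large fall and 2 genes that were not called. Ndufa4l2 encodes a mitochondrial protein related to the respiratory chain subunit NDUFA4 and known to be induced in hypoxia. It lies at chr10:127514967-127517154 on the plus strand of GRCm38 and is annotated as protein coding. Ndufa4l2 was at 4.44, 2.68 and 4.25 FPKM at day 0, at 2.12, 1.67 and 4.68 at day 4, at 0.714, 0.631 and 1.02 at day 8 and at 0.163, 0.319 and 0.181 at day 10. Day 4 overlapped day 0 through replicate 3, while days 8 and 10 lay below all earlier libraries. The Ndufa4l2 log2 change was -1.72 ± 0.28 at day 8 (limma adjusted p = 0.000425) and -2.55 ± 0.28 at day 10 (adjusted p = 8.62e-06), place 15 from the largest fall among the genes tested. At day 4 it was -0.45 ± 0.28 (adjusted p = 0.448), and without day 4 replicate 3 it was -0.82 (adjusted p = 0.0206). These changes are of log2(FPKM + 0.5), which understates the change of a gene this low. Ndufa4l2 shares 32 exon bases with Shmt2 on the opposite strand, and Shmt2 was at 74.7 ± 5.03 FPKM at day 0 and 83.7 ± 3.06 at day 10.

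Pdk1, the kinase that restrains entry of pyruvate into the mitochondrial cycle, was at 26.9, 27.4 and 27.4 FPKM at day 0, at 23.4, 24.5 and 22.8 at day 8 and at 21.9, 22.8 and 21.7 at day 10. Its day 8 and day 10 libraries lay below every day 0 library. Day 4, at 31.8, 30.5 and 20.4 FPKM, overlapped days 0, 8 and 10. The Pdk1 log2 change at day 10 was -0.29 ± 0.13 (limma adjusted p = 0.0956). It was called lower at day 10 under median-of-ratios scaling (-0.40, adjusted p = 0.00629), quantile normalization (-0.43, 0.0118), in the fit of the 2 groups alone (0.00243) and without whole cell day 4 replicate 3 (0.00234). At day 8 Pdk1 was called lower under median-of-ratios scaling (-0.29, adjusted p = 0.0459), in the fit of the 2 groups alone (-0.20, 0.0273) and without day 4 replicate 3 (0.0263), but not otherwise. Slc2a1, the basal glucose transporter GLUT1 and by far the highest of the 10 members per length, was at 242, 272 and 277 FPKM at day 0 and at 242, 224 and 233 at day 10. The groups overlapped, and the Slc2a1 log2 change was -0.18 ± 0.07 (adjusted p = 0.0668). Leaving out day 0 replicate 1 brought it past the threshold (-0.24, adjusted p = 0.0287), as did leaving out day 4 replicate 3 (adjusted p = 0.0334) and median-of-ratios scaling (-0.29, adjusted p = 0.0146). Slc2a1 shares 105 exon bases with the antisense gene Gm12868, whose mean over all libraries was 85.4 FPKM.

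Bnip3, a receptor on the outer mitochondrial membrane that draws mitochondria into autophagy, also fell. It was at 44.2, 36.5 and 31.8 FPKM at day 0, at 28.3, 26.4 and 33.5 at day 4, at 15.8, 16.3 and 13.8 at day 8 and at 10.5, 7.69 and 8.98 at day 10. Day 4 overlapped day 0, and days 8 and 10 did not overlap any earlier day. The Bnip3 log2 change was -1.26 ± 0.16 at day 8 (limma adjusted p = 6.02e-05) and -1.99 ± 0.16 at day 10 (adjusted p = 6.07e-07).

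P4ha1 encodes the catalytic subunit of the collagen prolyl 4-hydroxylase. It was at 10.7, 10.0 and 9.96 FPKM at day 0, at 12.5, 10.6 and 11.3 at day 8 and at 7.81, 6.51 and 7.53 at day 10. Day 4, at 9.10, 9.65 and 10.4 FPKM, overlapped day 0. P4ha1 was called lower than day 0 at day 10 alone, where every library lay below days 0, 4 and 8. The log2 change there was -0.47 ± 0.09 against day 0 (limma adjusted p = 0.000934).

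Vegfa, the vessel growth factor that is the classic secreted product of the pathway, was at 6.56, 6.59 and 6.24 FPKM at day 0, at 5.41, 5.77 and 5.59 at day 8 and at 4.61, 4.27 and 4.26 at day 10. These 3 days did not overlap each other, but day 4, at 6.90, 7.03 and 5.51 FPKM, overlapped days 0 and 8. The log2 change of Vegfa was -0.19 ± 0.09 at day 8 (limma adjusted p = 0.142) and -0.51 ± 0.09 at day 10 (adjusted p = 0.000652). At day 8 it was called lower under median-of-ratios scaling (-0.28, adjusted p = 0.0108) and quantile normalization (-0.36, 0.00180). Leaving out day 4 replicate 3 had the same effect on the call (0.0275).

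Ankrd37, an ankyrin repeat protein whose gene is induced by HIF1A, was at 2.73, 2.18 and 2.65 FPKM at day 0, at 2.45, 2.36 and 2.84 at day 4, at 1.30, 1.39 and 1.07 at day 8 and at 0.509, 0.333 and 0.946 at day 10. Days 0 and 4 overlapped, and days 8 and 10 lay below them without overlapping each other. The Ankrd37 log2 change was -0.79 ± 0.19 at day 8 (limma adjusted p = 0.00712) and -1.50 ± 0.19 at day 10 (adjusted p = 3.51e-05). Ankrd37 shares 349 exon bases with Lrp2bp and 57 with Ufsp2, both on the opposite strand.

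**Figure D2:**
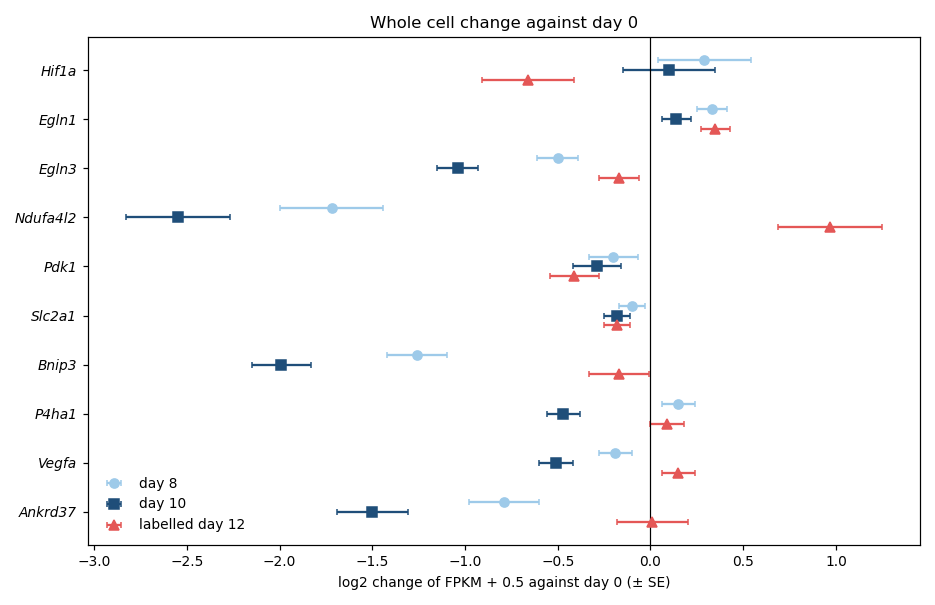
Log2 change of FPKM + 0.5 against day 0 (horizontal axis, with SE) for the 10 genes at day 8, day 10 and in the libraries labelled day 12. Ndufa4l2 reaches -2.55 and Bnip3 -1.99 at day 10, whereas in the libraries labelled day 12 Bnip3 is at -0.17 and Ndufa4l2 at 0.97.

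The order in time can be read from the steps between days. At day 4 no member was called against day 0 by limma (1 lower, Bnip3, at an unadjusted p under 0.05), where 4.88% of all genes were higher and 1.82% lower. Dicer1 had already fallen to 8.63% of its day 0 mean. Without day 4 replicate 3, Ndufa4l2 was called lower at day 4 (-0.82, limma adjusted p = 0.0206). At day 8, Egln1 was higher and Ndufa4l2, Bnip3, Ankrd37 and Egln3 were lower than at day 0, that is 1 and 4 members where 20.2% and 9.62% of all genes were called. The step from day 4 to day 8, which shares the day 8 libraries, called Egln1 higher and Ndufa4l2, Bnip3, Ankrd37 and Egln3 lower, beside 13.2% of all genes higher and 6.72% lower. In that step the log2 change was -1.27 ± 0.28 for Ndufa4l2, -0.92 ± 0.16 for Bnip3, -0.80 ± 0.19 for Ankrd37, -0.36 ± 0.11 for Egln3 and 0.44 ± 0.08 for Egln1. From day 8 to day 10 the members called were Bnip3 (-0.73 ± 0.16), P4ha1 (-0.62 ± 0.09), Egln3 (-0.54 ± 0.11) and Ankrd37 (-0.71 ± 0.19), all lower with none higher (0 also at an unadjusted p under 0.05), beside 3.24% of all genes lower and 5.20% higher. P4ha1 was called lower in this last step alone.

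Some calls in these single steps were lost, and others gained, when 1 library was left out or another setting was used. The Egln3 step to day 8 missed the threshold without day 4 replicate 1 or 2 or any 1 of the day 8 libraries (limma adjusted p = 0.0625 to 0.109). The Bnip3 step to day 10 missed it without day 10 replicate 2 (0.0617), day 8 replicate 1 (0.0526) or day 8 replicate 2 (0.0504), and the Ankrd37 step without day 10 replicate 1 or 2 or any 1 of the day 8 libraries (0.0638 to 0.147). The Egln3 step to day 8 also missed it with no filter (0.0527), and the Ankrd37 step to day 10 with no filter (0.0606), in the fit of the 2 groups alone (0.0703) and without the libraries labelled day 12 (0.0509). In the fit of the 2 groups alone, the step to day 8 was lost for Ndufa4l2 (0.109), Egln3 (0.123), Ankrd37 (0.0532) and Egln1 (0.0817). Without day 4 replicate 3, the step from day 4 to day 8 also called P4ha1 higher (0.28, adjusted p = 0.0400) and Pdk1 (-0.39, 0.00271) and Vegfa (-0.29, 0.0114) lower. Vegfa was called lower in that step under median-of-ratios scaling (0.0177) and quantile normalization (0.00655) as well. In the step from day 8 to day 10, Vegfa (-0.32 to -0.38) was called lower with a filter at 1 FPKM (limma adjusted p = 0.0489), median-of-ratios scaling (0.0135), quantile normalization (0.00472) and the 2 groups alone (0.0239). Ndufa4l2 was called lower there with the 2 groups alone (-0.83, adjusted p = 0.0349) and a pseudocount of 0.1 (-1.48, 0.0194), Egln1 under quantile normalization (-0.25, 0.0431) and Hif1a with the 2 groups alone (-0.18, 0.0343).

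The libraries labelled day 12 did not share the fall. Ndufa4l2 was at 9.12, 7.14 and 7.17 FPKM there, above every other whole cell library. Its log2 change against day 0 was 0.97 ± 0.28 (limma adjusted p = 0.0337). That call was lost without day 0 replicate 2 (0.77, adjusted p = 0.161), day 0 replicate 3 (0.0576), or any 1 of the 3 libraries labelled day 12 (0.0710 to 0.110), and also under either scaling, with a pseudocount of 0.1 or with no filter (0.0572 to 0.0726). Egln1, at 13.2, 11.1 and 12.0 FPKM, was the other member called, with a log2 change of 0.35 ± 0.08 (adjusted p = 0.00980; without day 0 replicate 2, 0.0526). No member was called lower by limma (3 at an unadjusted p under 0.05), and the shares of all genes called were 10.2% higher and 3.34% lower. Bnip3 at 35.1, 27.0 and 37.8 FPKM, Egln3 at 10.2, 7.07 and 9.62 and Ankrd37 at 2.81, 1.97 and 2.92 overlapped day 0.

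Against day 10, the libraries labelled day 12 had 7 members higher and 1 lower, where 20.6% of all genes were higher and 25.2% lower. The members higher were Ndufa4l2 (log2 change 3.52 ± 0.28), Bnip3 (1.82 ± 0.16), Ankrd37 (1.51 ± 0.19), Egln3 (0.87 ± 0.11), Vegfa (0.66 ± 0.09), P4ha1 (0.55 ± 0.09) and Egln1 (0.22 ± 0.08). Hif1a was the 1 lower (-0.76 ± 0.25, limma adjusted p = 0.0240). The Hif1a call was lost without any 1 of the day 10 libraries or without replicate 2 or 3 labelled day 12 (adjusted p = 0.0518 to 0.0909). The Egln1 call was lost without any 1 of the day 10 libraries or without replicate 1 or 3 labelled day 12 (adjusted p = 0.0543 to 0.149). Dicer1 differed in the same comparison by 2.70 ± 0.16, so this step compares cells whose Dicer1 level differs, and its direction in time cannot be read from the labels.

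The way genes were scaled changed the counts of the members and of all genes. Median-of-ratios scaling called 6 members lower in place of 4 at day 8, adding Pdk1 and Vegfa, where the genes called lower went from 1539 to 2113. At day 10 it called 8 in place of 6, adding Pdk1 and Slc2a1, where the genes called lower went from 2560 to 3324. Quantile normalization called 5 lower at day 8, adding Vegfa, and 7 at day 10, adding Pdk1. Quantile normalization moved the share of called genes that were higher from 67.7% to 45.9% at day 8 and from 63.4% to 44.4% at day 10. For the libraries labelled day 12 against day 0 it moved from 75.4% to 44.9%, and at day 4 from 72.8% to 56.5%. For the step from day 4 to day 8 it moved from 66.2% to 53.0%, and for day 8 to day 10 from 61.6% to 51.1%. Median-of-ratios scaling gave 56.5% at day 8, 56.2% for the libraries labelled day 12 and 54.0% for the step to day 8. No member's call changed direction under either scaling.

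In the fractions, Ndufa4l2 at day 12 was at 0.169, 0.278 and 0.220 FPKM in the nucleus, where day 0 had 6.37, 4.18 and 9.31. In the cytoplasm it was listed at 0 in 1 library and at 0.118 and 0.0526 FPKM in the others, where day 0 had 7.67, 6.86 and 8.20. No day 12 library came near the day 0 range in either fraction. Its mean at day 12 was 3.36% of day 0 in the nucleus and 0.749% in the cytoplasm, places 4 and 1 from the largest fall among 17124 genes. These are the values that put it on the list.

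Bnip3 in the cytoplasm was at 37.9, 42.0 and 46.2 FPKM at day 0 and at 9.82, 9.17 and 7.29 at day 12, and in the nucleus at 22.4, 16.7 and 12.1 and at 5.11, 8.61 and 8.25. Neither fraction overlapped between days. Vegfa in the nucleus was at 21.7, 23.4 and 24.5 FPKM at day 0 and at 6.82, 7.18 and 6.78 at day 12, and its cytoplasmic mean went from 8.63 ± 0.844 to 4.30 ± 0.206. Ankrd37 means went from 3.04 ± 0.423 to 1.03 ± 0.0531 FPKM in the nucleus and from 2.02 ± 0.370 to 0.921 ± 0.303 in the cytoplasm. P4ha1 means went from 20.0 ± 2.46 to 13.3 ± 3.47 and from 11.6 ± 0.762 to 6.57 ± 0.599 in the same order.

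Egln3 differed between the fractions in overlap. Its cytoplasmic libraries went from 8.27, 7.06 and 7.95 FPKM to 5.16, 5.06 and 4.67 without overlap, and its nuclear libraries, from 4.99, 4.14 and 4.64 to 2.89, 4.26 and 4.14, overlapped. Slc2a1 went the other way in the cytoplasm, from 174, 169 and 164 FPKM to 279, 271 and 274, with no overlap. Its nuclear libraries, at 271, 242 and 155 FPKM and then at 359, 196 and 193, overlapped. Hif1a and Egln1 overlapped between days in both fractions, as did Pdk1 in the nucleus, while Pdk1 in the cytoplasm was at 19.1, 19.5 and 19.9 and then at 20.4, 22.6 and 20.7 FPKM. With the threshold used elsewhere, 5 members would count as lower and 0 as higher in the nucleus, where 21.6% of all genes were lower and 15.1% higher. In the cytoplasm 6 members would count as lower and 0 as higher, where 16.6% of all genes were lower and 16.0% higher. Nothing is read from these counts, since the contrast chose the list.

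**Figure D3:**
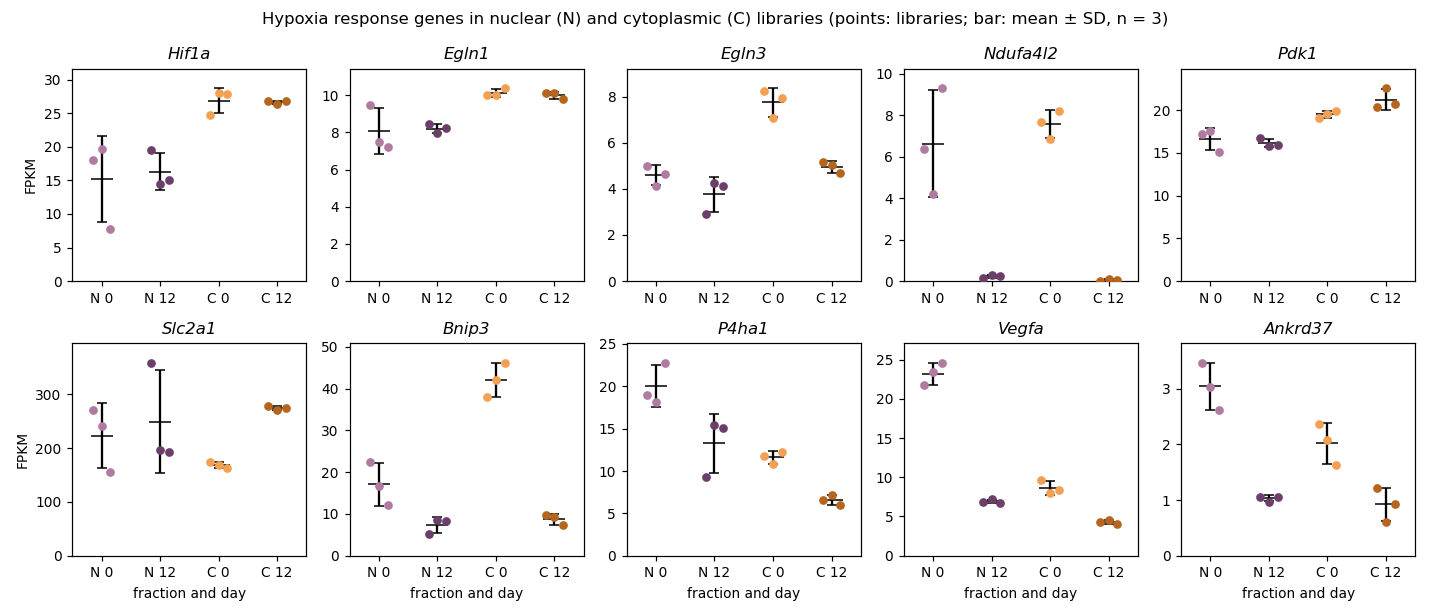
FPKM of the 10 genes (vertical axes, each from 0) in nuclear (N) and cytoplasmic (C) libraries at days 0 and 12; points are libraries, and bars the mean and SD of 3. Ndufa4l2 is close to 0 in all 6 day 12 libraries, Bnip3 is highest in the day 0 cytoplasm and Vegfa in the day 0 nucleus.

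The rule did not use the comparison of the fractions with each other. At day 0, Vegfa was 269% of its cytoplasmic level in the nuclear libraries, a log2 difference of 1.38 ± 0.10 (limma adjusted p = 5.23e-06), and P4ha1 172% (0.75 ± 0.18, adjusted p = 0.00651). Bnip3 was at 40.6% of its cytoplasmic level in the nucleus (-1.31 ± 0.24, adjusted p = 0.00132) and Egln3 at 59.1% (-0.70 ± 0.14, adjusted p = 0.00272). Ankrd37 (0.49 ± 0.18, adjusted p = 0.0485) was also called higher, and Hif1a (-0.90 ± 0.27, 0.0221) and Egln1 (-0.33 ± 0.11, 0.0292) lower. That made 3 members higher and 4 lower in the nucleus, where 25.3% and 16.4% of all genes were. The 3 weakest of these calls depended on single libraries. The Ankrd37 call was lost without any 1 of the cytoplasmic libraries or without nuclear replicate 1 or 2 (adjusted p = 0.0502 to 0.174), and under quantile normalization it was 0.14 (adjusted p = 0.561). It was also lost under median-of-ratios scaling, with no filter, with a pseudocount of 0.1 and in the fit of the 2 groups alone (0.0656 to 0.0895). That last fit lost the Egln1 (0.0983) and Hif1a (0.0786) calls as well. The Egln1 call was lost without any 1 of the cytoplasmic libraries or nuclear replicate 2 (0.0659 to 0.0907), and the Hif1a call without cytoplasmic replicate 2 (0.0652) or 3 (0.0634).

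At day 12, Vegfa (0.63 ± 0.10, limma adjusted p = 0.000745) and P4ha1 (0.93 ± 0.18, 0.00261) were again higher in the nucleus and Pdk1 (-0.39 ± 0.09, 0.00678) was lower. That was 2 members and 1, where 18.4% of all genes were higher and 15.7% lower. Bnip3, at 7.32 ± 1.92 FPKM in the nucleus and 8.76 ± 1.32 in the cytoplasm, overlapped and was not called (-0.27 ± 0.24, adjusted p = 0.416). Whether the fraction difference itself changed between days was not tested. Egln3 was called lower in the nucleus without nuclear replicate 2 (-0.46, adjusted p = 0.0495), under median-of-ratios scaling (-0.41, 0.0398) and under quantile normalization (-0.53, 0.0223). Egln1 was called lower under both scalings (0.0431 and 0.0423) and in the fit of the 2 groups alone (0.0341), and Hif1a in that fit too (-0.70, 0.00752). Ndufa4l2 was called higher in the nucleus at day 12 with a pseudocount of 0.1 alone (adjusted p = 0.0255). All its day 12 fraction libraries were below 0.5 FPKM, so it passed the filter through its day 0 values only. At day 0, Pdk1 was called lower in the nucleus under median-of-ratios scaling (-0.33, adjusted p = 0.0128). Without nucleus day 0 replicate 3 and nucleus day 12 replicate 1, an omission chosen after seeing the data, Slc2a1 was higher in the nucleus at day 0 (0.60, adjusted p = 2.51e-05) and lower at day 12 (-0.50, adjusted p = 9.59e-05). Without the same libraries, Hif1a (-0.83, adjusted p = 9.67e-06) and Egln1 (-0.29, 0.0177) were also lower in the nucleus at day 12, and Ndufa4l2 (-0.51, 0.0255) and Pdk1 (-0.16, 0.0269) at day 0. Without nucleus day 0 replicate 3 alone, Ndufa4l2 was lower in the nucleus at day 0 (-0.51, adjusted p = 0.0368). The fraction values of Ndufa4l2 at both days put it on the list, so nothing is read from its calls between fractions.

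Nuclear libraries held more of the nuclear RNAs Malat1, Neat1 and Meg3, whose summed level was 252 to 480 FPKM in the nucleus and 20.7 to 23.9 in the cytoplasm at day 0, and 130 to 298 against 25.1 to 27.8 at day 12. The fraction shares in a library are relative to its own total, so a nuclear value above a cytoplasmic one does not give the number of molecules in each compartment. Quantile normalization moved the share of called genes that were higher in the nucleus from 60.7% to 39.4% at day 0 and from 54.1% to 39.6% at day 12. It moved the median log2 difference of all genes at day 0 from 0.12 to -0.10.

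The rest of the pathway did not move as 1 block. The counts of called genes in the lists below stand beside 27.7% higher and 16.0% lower over all genes at day 10, and no list was tested as a set. Among 8 other HIF subunits and cofactors at day 10, 4 were higher and 1 lower in whole cells (median log2 change 0.40). Epas1, the HIF2 alpha subunit and paralog of Hif1a, rose from 11.1 ± 1.08 FPKM at day 0 to 26.6 ± 0.503 at day 10 (1.23 ± 0.18, limma adjusted p = 0.000129). Its libraries ran 9.99, 11.2 and 12.1 at day 0, 19.5, 22.2 and 11.2 at day 4, 18.2, 16.5 and 19.6 at day 8 and 26.0, 27.0 and 26.8 at day 10. The day 10 libraries lay above all others of the whole cell series. Cited2 and Cited4, which compete with HIF for its coactivators, rose by 1.12 ± 0.10 and 1.84 ± 0.15. Hif3a, a subunit that can dampen the pathway, fell from 2.30 ± 0.0653 to 0.669 ± 0.182 FPKM (-1.27 ± 0.16, adjusted p = 3.51e-05).

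Of 11 other genes of oxygen sensing and HIF turnover, 4 were higher and 1 lower at day 10 (median 0.10, all genes 0.09). These counts were near the shares over all genes and are no result about the list. Hif1an, the asparagine hydroxylase that blocks coactivator binding by HIF alpha, was at 7.41, 9.17 and 9.84 FPKM at day 0, at 21.8, 22.2 and 23.9 at day 8 and at 22.5, 23.4 and 21.7 at day 10. Both later days lay above day 0 without overlap, and its log2 change at day 10 was 1.32 ± 0.20 (limma adjusted p = 0.000186). Os9 rose by 1.02 ± 0.09 and P4htm, a membrane-bound prolyl hydroxylase, by 0.92 ± 0.18, while Rbx1, the RING subunit of the VHL ligase, fell (-0.70 ± 0.24, adjusted p = 0.0304). In the libraries labelled day 12, Epas1 was at 6.79, 6.29 and 6.47 FPKM, below day 0 (-0.72 ± 0.18, adjusted p = 0.0190), and Hif1an at 7.96, 6.01 and 6.70, overlapping day 0.

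**Figure D4:**
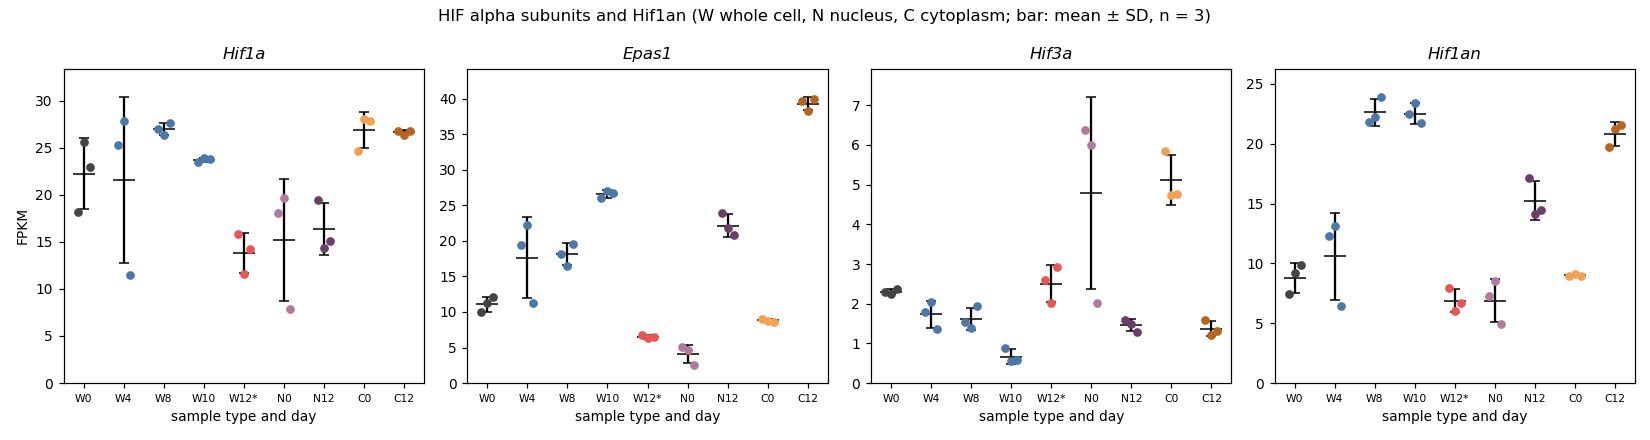
FPKM (vertical axes, each from 0) of Hif1a, Epas1, Hif3a and Hif1an in all 9 groups (W whole cell, N nucleus, C cytoplasm, with the day; W12* marks the libraries labelled day 12); points are libraries, and bars the mean and SD of 3. Epas1 and Hif1an are high at whole cell day 10 and in both fractions at day 12, where Hif3a is low, while Hif1a at whole cell day 10 lies within its day 0 range.

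Glycolysis and glucose entry was the target group with the most falls. Of 23 such genes tested at day 10, 14 were lower and 3 higher, with a median log2 change of -0.59 (all genes 0.09). Slc16a3, the lactate exporter MCT4, fell from 40.6 ± 1.95 to 8.61 ± 0.674 FPKM (-2.18 ± 0.09, limma adjusted p = 3.34e-09). Aldoc, an aldolase, fell from 12.8 ± 1.32 to 4.84 ± 0.772 FPKM (-1.32 ± 0.11, adjusted p = 1.18e-06). Gapdh (-3.57 ± 0.12) and Pgk1 (-2.05 ± 0.08) were also called. Both have many near-identical copies in the genome, and whether this touches their values in any comparison was not tested. In the libraries labelled day 12, 3 genes of the group were lower than at day 0 and 4 higher. Those lower were Gapdh, as given above, Pgk1 (214 ± 20.5 against 370 ± 9.11 FPKM) and Pgam1 (162 ± 4.66 against 304 ± 39.8). The values of Gapdh and Pgk1 against day 0 are thus uncertain. The doubt about the day 0 files extends to the count of 14 and the median of this group. In the step from day 8 to day 10, which does not use the day 0 libraries, 9 genes of the group were lower and 0 higher (median -0.16, all genes 0.02). Among those lower were Slc16a3 (-1.40 ± 0.09), Pfkl (-0.89 ± 0.12), Aldoa (-0.65 ± 0.08) and Pgk1 (-0.65 ± 0.08). At an unadjusted p under 0.05 the count higher in that step by limma was also 0.

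The other target groups held calls in both directions at day 10. Of 10 genes of mitochondria and autophagy, 3 were lower and 1 higher (median -0.16): Ddit4, an inhibitor of mTORC1 signalling, fell (-0.71 ± 0.15), as did Fam162a (-0.67 ± 0.18) and Higd1a (-0.42 ± 0.12), and Ak4 rose (0.28 ± 0.11). Of 9 collagen and secretory enzymes, 4 were higher and 1 lower (median 0.27). Lox, which cross-links collagen, rose from 0.254 ± 0.120 to 5.34 ± 0.554 FPKM (2.96 ± 0.16, limma adjusted p = 2.36e-08). Lox was already higher at day 8, at 1.63 ± 0.233 FPKM (adjusted p = 1.75e-05), when P4ha1, the member of the same functional group, was not called (0.15 ± 0.09, adjusted p = 0.222). Of 12 signals and receptors tested, 4 were higher and 2 lower (median 0.38), with Edn1, the endothelin 1 gene, up by 2.29 ± 0.24 and Mif down (-1.20 ± 0.18). Of 10 genes of transcription and chromatin tested, 3 were higher and 1 lower (median 0.00), with Kdm3a, a histone H3 lysine 9 demethylase, up by 0.65 ± 0.15 and Hey1 down (-0.75 ± 0.19). The counts of these last 2 lists were near the shares over all genes and are no result about the lists.

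**Figure D5:**
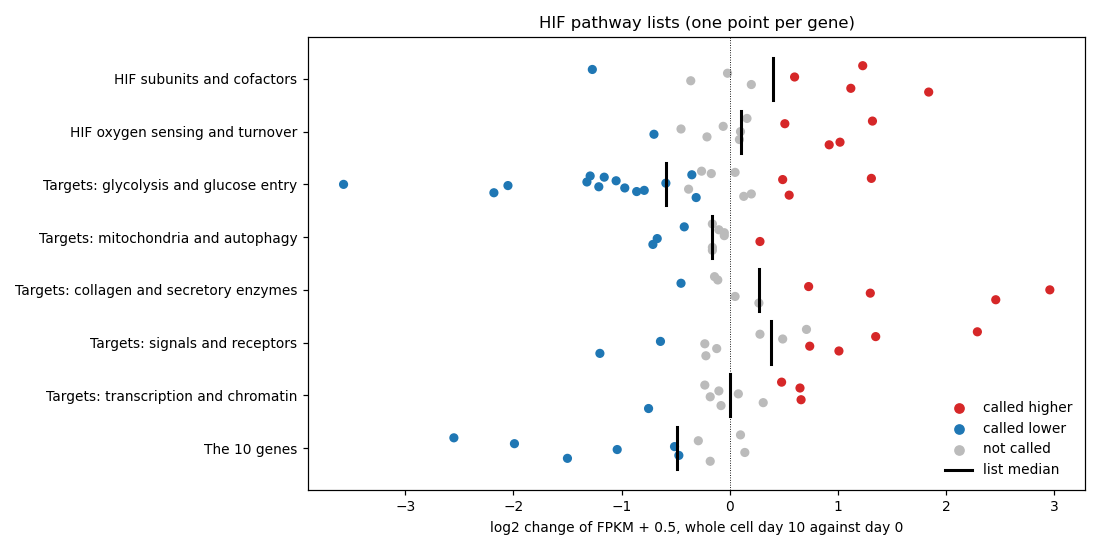
Log2 change of FPKM + 0.5 at whole cell day 10 against day 0 (horizontal axis), 1 point per gene, for 7 lists of HIF pathway genes and the 10 genes; red points were called higher, blue lower and grey not called, and the black bar is the list median. The glycolysis list (median -0.59) and the 10 genes (-0.49) lie to the left, and the collagen and secretory list (0.27) to the right.

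Among close relatives of the members, changes went both ways. Of 17 paralogs tested at day 10, 6 were higher and 4 lower (median 0.16), which is also near the shares over all genes. Ndufa4, the paralog of Ndufa4l2 in the respiratory chain, was at 287 ± 51.0 FPKM at day 0 and 327 ± 24.7 at day 10 and was not called. Vegfc, which acts on lymphatic vessels, rose from 4.09 ± 0.380 to 9.41 ± 0.734 FPKM (1.11 ± 0.09, limma adjusted p = 7.32e-07) while Vegfb fell from 28.5 ± 2.80 to 14.0 ± 0.692 (adjusted p = 0.000416).

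Over the 9 group means, the genes whose log2(FPKM + 0.5) was most like that of Ndufa4l2, among 11217 genes with a group mean of at least 2 FPKM, were Naaa (Pearson r = 0.993), Crb3 (0.991), Gnmt (0.990), Palm (0.989) and Fance (0.988). The 9 points share libraries between genes and fall into groups with and without the level of Dicer1 seen at day 0, so such values describe the pattern only. Gnmt, for example, was at 3.26 FPKM at whole cell day 0, 0.745 at day 10 and 4.82 in the libraries labelled day 12.

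Summed markers of trophoblast, endothelium and endoderm were higher at day 10 than at day 0, and those of fibroblasts overlapped. The trophoblast sum was above day 0 already at day 4 and also in the libraries labelled day 12. Over 7 trophoblast markers (Cdx2, Krt8, Krt18, Elf5, Gata3, Hand1 and Tfap2c) the summed level was 145 to 194 FPKM at whole cell day 0, 259 to 294 at day 4, 409 to 458 at day 8, 513 to 550 at day 10 and 362 to 405 in the libraries labelled day 12. Of 6 of them tested at day 10, 5 were higher and 1 lower. Most of the sum was Krt8 and Krt18, at 73.1 and 75.5 FPKM at day 0. They were at 114 and 138 FPKM at day 4 and at 262 and 247 at day 10. Of the 6 tested at day 4, only these 2 were called higher and 0 lower. At that day 3 of the 7 markers had means under 1 FPKM. The endothelial list of 6 had sums of 16.8 to 18.4 FPKM at day 0 and 39.7 to 40.5 at day 10, with 3 of 4 tested higher. Most of this sum at both days was Pecam1, at 31 ± 0.361 FPKM at day 10 (log2 change 1.23 ± 0.15), so the sum mainly follows that gene. Tek, at 6.63 ± 0.0699 FPKM, and Kdr, at 1.17 ± 0.129, were the others called higher. Of the 6 markers, 4 had means under 1 FPKM at day 0 and 3 at day 10. The endoderm list of 6 had sums of 1.74 to 2.06 and 2.89 to 3.24 FPKM, with 1 of 4 higher. The fibroblast list of 6 had sums of 9.94 to 10.7 and 9.40 to 10.3 FPKM, with 2 of 4 higher and 1 lower, and Lum was listed at 0 in all 3 libraries at day 0. Of the 8 stem cell markers, 2 were higher and 1 lower at day 10. The part of these cell types in the falls of the members was not tested.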

How the data were processed

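RNA was measured by 100-base paired-end, polyA-selected, directional libraries, per the labels' protocols. The authors deposited 1 FPKM table per library; TopHat2 2.0.9, Cufflinks 1.3.0 and mm9 are named, without roles, in the submitters' processing notes, and no source used here says whether strand was used in counting. Each value is scaled to its own library's mapped fragments, so a change in a few abundant RNAs shifts all other values. Identifiers were joined without regard to letter case, and 36253 of 38123 had a GENCODE M21 symbol; coordinates and sequences are GRCm38, and none were taken from mm9. Genes reaching a group mean of 0.5 FPKM anywhere in the fit were tested with limma 3.58.1 (R 4.3.3) on log2(FPKM + 0.5), with a trended prior and 1 mean per group, in 1 fit of the 15 whole cell libraries and 1 of the 12 fraction libraries. P-values were Benjamini-Hochberg adjusted over all genes of a fit, with a threshold of 0.05. The members, gene lists and tests were chosen with earlier results of these data known. Besides the members and Dicer1, named genes were the paralogs, up to 4 genes per list and comparison with the largest called change and no overlap between groups, and the 5 genes most like Ndufa4l2. Depth was read from the steps between FPKM values below 0.05. In simulated data for day 10 against day 0, 77 of 100 genes changed by 1 log2 unit and 92 of 100 changed by 2 were recovered, with 17 false calls. For nucleus against cytoplasm at day 0 the numbers recovered were 63 and 90 of 100, with 12 false calls. The simulation changed far fewer genes than were called in the data and left the lowest genes unchanged. Alternatives were other pseudocounts (0.1 and 1), filters, scalings, a replicate block, a fit of the 2 groups compared, and omission of single libraries. Same-numbered libraries did not deviate together in every pair. 1 gene that the naming rule selects is not reported here.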

Additional observations from a re-analysis of the deposited data

Results flagged for a closer look

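For 4 members, every library labelled or dated day 12 lay on one side of its own day 0 in whole cells and on the other side in a fraction. The difference between the sample types was not tested, and the fraction values of Ndufa4l2 are those that put it on the list. Ndufa4l2 was higher in the whole cell libraries labelled day 12 (log2 change 0.97) and lower in the cytoplasm (-3.86) and the nucleus (-3.24), so the changes differed by 4.83 and 4.21. Vegfa was at 0.15 in whole cells, -0.92 in the cytoplasm and -1.67 in the nucleus, differing by 1.07 and 1.82. Pdk1 was at -0.41 in whole cells and 0.12 in the cytoplasm, a difference of -0.53, and Slc2a1 at -0.18 and 0.70, a difference of -0.88. Dicer1 in the same whole cell libraries was at 89.7% of its day 0 mean, against 13.6% in the cytoplasm and 31.6% in the nucleus.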

How the results depend on the processing

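No call of a member changed direction under any alternative run. In the comparison of the libraries labelled day 12 with day 0, the members higher numbered 1 in place of 2 with median-of-ratios scaling, quantile normalization, a pseudocount of 0.1 or no filter, and 0 to 2 with 1 library left out. The members lower there numbered 2 in place of 0 with either scaling, in the fit of the 2 groups alone or, chosen after seeing the data, without day 4 replicate 3, and otherwise 0. From day 4 to day 8 the fit of the 2 groups alone called 0 higher and 1 lower in place of 1 and 4, and leaving out 1 library gave 1 to 2 higher. For day 4 against day 0, leaving out 1 library gave 0 to 1 lower. From day 8 to day 10 it gave 2 to 4 lower and the other alternatives 3 to 6, in place of 4. Against day 0, the members lower numbered 4 to 6 in place of 4 at day 8 and 6 to 8 in place of 6 at day 10 over all alternatives. With 1 library left out, the libraries labelled day 12 against day 10 had 0 to 1 lower. Between nucleus and cytoplasm at day 0, 2 members were lower in the fit of the 2 groups alone and 2 to 5 with 1 library left out. At day 12 the number lower in the nucleus was 3 in place of 1 with either scaling or the 2 groups alone, 1 to 2 with 1 library left out, and 4 without the 2 nuclear libraries farthest from their group, an omission chosen after seeing the data. The cause of these shifts was not tested.

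Replicate numbers did not pair the libraries: correlations of same-numbered deviations ran from -0.30 to 0.15. With a replicate block, Egln1 in the libraries labelled day 12 against day 10 (limma adjusted p = 0.0527) and Egln3 from day 4 to day 8 (0.0503) missed the threshold, and no other call of a member changed.

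Over all genes, the fit of the 2 groups alone called 438 in place of 1071 at day 4, 351 in place of 3181 from day 4 to day 8, 2834 in place of 1349 from day 8 to day 10 and 3793 in place of 2170 for the libraries labelled day 12 against day 0. Without day 4 replicate 3 the counts were 1721 at day 4 and 4674 for the libraries labelled day 12. The latter was 1062 to 1380 without day 0 replicate 2 or replicate 2 or 3 labelled day 12. From day 4 to day 8 it was 2016 and 2044 without day 8 replicate 1 or 3, and from day 8 to day 10 it was 639 to 814 without any 1 library. Without the 2 nuclear libraries farthest from their group, 10885 in place of 7152 genes were called between fractions at day 0 and 10197 in place of 5837 at day 12. Quantile normalization moved the median change of all genes at day 10 from 0.09 to -0.08. Deposited FPKM carry no counts, so no counting interval can be given, and Ndufa4l2 and Ankrd37, near or below 1 FPKM at day 10, are the least precise members.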
